A study of Mus musculus with 12 samples.

Results

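A set of iron and heme handling genes was followed in cardiac macrophages (Mφ). The set comprises the 10 rows of the deposited gene counts named Hmox1, Slc40a1, Fth1, Ftl1, Slc11a1, Slc11a2, Tfrc, Heph, Cp and Blvrb, out of 24445 gene symbols, and all 10 were among the 14608 genes that passed the filter on low counts. Adult male C57BL6/J mice, with no altered allele given for them, carried an implanted pump. Control (Ct) mice received saline for a time that the sources used here do not give for each mouse. Isoproterenol, which stimulates β-adrenergic receptors, was infused at 30 mg/kg/day, over 14 days in the early concentric hypertrophy (ECH) mice and over 28 days in the heart failure (HF) mice. Hearts were digested with collagenase, CD45-bearing cells were enriched, and live single cells that carried CD11b, CD14 and CD64 were sorted by flow cytometry. Their RNA was sequenced after cDNA amplification with the SMART-Seq v4 kit, made for small amounts of RNA. Each group held 4 mice with 1 library each. These gates do not separate resident Mφ from cells newly derived from monocytes.

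The totals lay between 88466559 and 111180291 counts per library, and between 13600 and 15940 genes were detected. Levels are given as CPM, the count of a gene relative to the size of its library after TMM scaling with edgeR. All 8 Mφ markers were detected in every group, with a summed level of 21900 to 32500 CPM, of which Lyz2 made up 12800 to 21900 CPM. Of the others, Adgre1 lay between 579 and 1360 CPM and Fcgr1, which encodes CD64, between 71.5 and 182 CPM, both lowest in ECH library 4, and Itgam, which encodes CD11b, between 223 and 787 CPM. Library numbers in the labels allow a pair of sets to be inferred, with the Ct libraries and ECH libraries 1 and 2 in set A and the HF libraries and ECH libraries 3 and 4 in set B. Neither the labels nor the study states that these sets were prepared apart. The labels also carry a further code, which the sources used here do not explain. ECH libraries 3 and 4 share this code, whereas ECH libraries 1 and 2 each carry a different one. Some Ct libraries and some HF libraries also share a code within their group. Set and group cannot be told apart between Ct and HF, whereas ECH can be compared with Ct within set A and with HF within set B.

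Mφ recover iron from the heme of engulfed red cells. Hmox1 opens the heme ring and frees its iron, which is stored in ferritin, built from Fth1 and Ftl1 chains, or leaves the cell through ferroportin, the product of Slc40a1, whose work is aided by the copper oxidases ceruloplasmin (Cp) and hephaestin (Heph). Iron bound to transferrin enters through the receptor Tfrc and crosses the endosomal membrane through Slc11a2. Several of these mRNAs carry a short hairpin, the iron-responsive element. When iron is scarce, iron regulatory proteins bind it, which blocks translation where the hairpin lies in the 5′ UTR and protects the mRNA from decay where hairpins lie in the 3′ UTR.

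The hairpins are shown because they divide the 10 genes by how their mRNA is known to be regulated. The UTRs of protein-coding transcripts of GENCODE M21 (GRCm38, which is mm10) were searched on the transcript strand for the letters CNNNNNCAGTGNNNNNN, with at least 4 of the 5 bases on either side of CAGTGN able to pair. A match was found in 5 of the 10 genes, and the loop letters with the base that follows them are in capitals, 5′ to 3′. Fth1, Ftl1 and Slc40a1 had 1 match each in the 5′ UTR, at chr19:9982733-9982759 (plus strand), chr7:45459780-45459806 (minus) and chr1:45925466-45925492 (minus).
Fth1 5′ UTR: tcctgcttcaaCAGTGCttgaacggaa
Ftl1 5′ UTR: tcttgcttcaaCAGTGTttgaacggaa
Slc40a1 5′ UTR: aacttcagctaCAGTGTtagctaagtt
Tfrc had 4 matches in its 3′ UTR on the plus strand, at chr16:32631220-32631246, chr16:32631599-32631625, chr16:32631664-32631690 and chr16:32631711-32631737, printed in that order. Slc11a2 had 1 in the 3′ UTR of a single annotated transcript, at chr15:100395154-100395180 (minus).
Tfrc 3′ UTR, the first: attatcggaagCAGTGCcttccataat
Tfrc 3′ UTR, the second: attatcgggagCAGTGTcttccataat
Tfrc 3′ UTR, the third: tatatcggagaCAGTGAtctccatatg
Tfrc 3′ UTR, the fourth: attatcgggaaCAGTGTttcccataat
Slc11a2 3′ UTR: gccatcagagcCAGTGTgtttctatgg
All 5 bases on either side of the loop could pair in each match except that of Slc11a2, where 4 could. Of the 5 bases further out, 5 could pair in Slc40a1 and in every Tfrc match, 4 in Fth1 and Ftl1, and 1 in Slc11a2. The letters with this upper stem were in the 5′ UTR of 0.981% and the 3′ UTR of 4.15% of all genes with such a UTR, and with at least 4 of 5 pairs in both stems in 0.0909% and 0.323%. The UTRs of Hmox1, Slc11a1, Heph, Cp and Blvrb held no match to these letters.

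Of the 10 genes, 1 was called in each comparison with Ct, and it was a different gene each time. Tfrc was lower in ECH Mφ and Cp was lower in HF Mφ. A call required a false discovery rate (FDR) under 0.05 over all genes tested, by the quasi-likelihood test of edgeR, and a fold change of at least 2, the thresholds the study states. Of all genes tested, 0.356% were called between ECH and Ct, with 0.089% of all genes called as lower in ECH. Between HF and Ct 0.377% were called, with 0.11% of all genes called as lower in HF. None of the 14608 genes was called between HF and ECH. The study used these thresholds in its own edgeR analysis and reported genes that set ECH Mφ apart from both Ct and HF Mφ. Its calls thus differ from those given here. In that comparison 7.98% of all genes had an unadjusted p under 0.05, as did Tfrc, higher in HF, and Cp and Slc11a1, lower. Heph, near 0 in most libraries, is left out of this count because it passed the filter mainly through the ECH libraries where it was high. In the same comparison DESeq2 called 1 of the 10, Cp, beside 0.398% of all genes. Against Ct, DESeq2 called Tfrc in ECH, and also Heph, which is not read because it was near 0 in most libraries, beside 1.99% of all genes. In HF against Ct it called Cp, beside 2.8%. With Heph left out, the median log2 fold change of the set was −0.13 for ECH against Ct (the value of Ftl1). It was −0.12 for HF against Ct (Slc11a2) and 0.12 for HF against ECH (Ftl1). Over all genes the medians were 0.01, −0.01 and −0.02. The comparisons share libraries, so their values are given side by side.

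**Figure D1:**
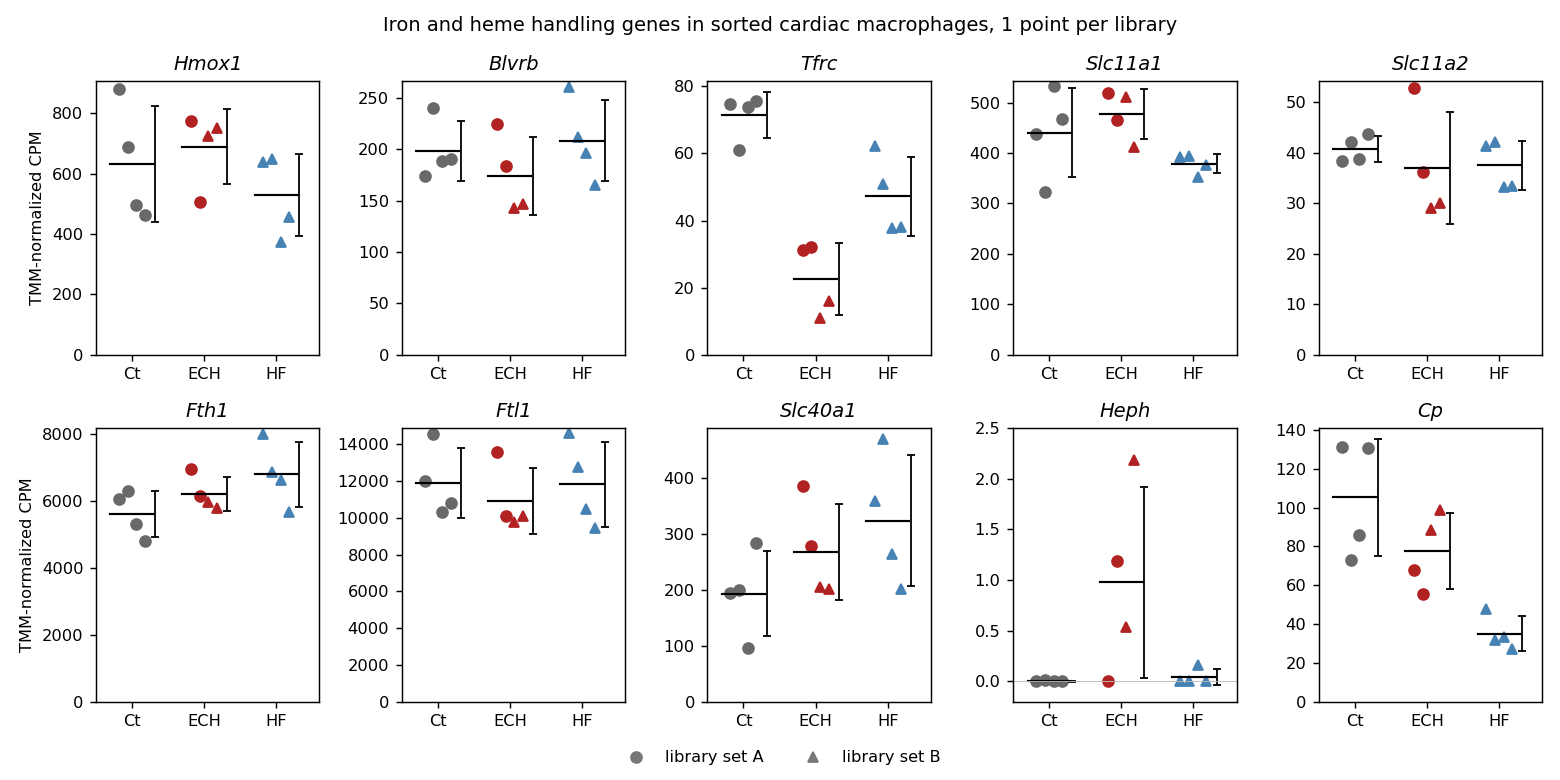
TMM-normalized CPM of the 10 genes in each of the 12 libraries, with circles for library set A and triangles for set B. Horizontal lines are group means and bars are 1 SD (n = 4); all ECH values of Tfrc lie below all Ct and HF values, and all HF values of Cp lie below all Ct and ECH values.

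The levels spanned several orders of magnitude. Per kb of the longest principal transcript, averaged over the 12 libraries, Ftl1 was at 11920 CPM per kb and Fth1 at 4152, above at least 99.9% of the genes tested. Hmox1 followed with 393 CPM per kb. Blvrb and Slc11a1, at 188 and 187 CPM per kb, differed by less than the spread between libraries, which ran from 139 to 253 for Blvrb and from 139 to 230 for Slc11a1. Slc40a1 stood at 77.7 CPM per kb, Cp at 18, Slc11a2 at 12.7 and Tfrc at 9.62. The ranges of the last 3 overlapped, from 6.74 to 32.6 for Cp, 9.60 to 17.5 for Slc11a2 and 2.23 to 15.5 for Tfrc. Heph was at 0.0718 CPM per kb, above only 4.78% of the genes tested. The ferritin chains alone held 1.52% to 2.02% of all counts of a Ct library, 1.61% to 1.93% of an ECH library and 1.54% to 2.19% of an HF library.

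Of the 10 genes, the pair that acts in heme breakdown, Hmox1 and Blvrb, did not pass the test in any comparison. Hmox1 (chromosome 8, 75093621 to 75100589), the inducible heme oxygenase, was at 882, 688, 497 and 462 CPM in the Ct libraries, at 774, 505, 724 and 753 in ECH and at 640, 648, 374 and 455.5 in HF. Ct library 1 was the highest and HF library 3 the lowest of all 12, and the ranges of the 3 groups overlapped. The log2 fold change was 0.12 ± 0.24 (SE) for ECH against Ct (FDR 0.885), −0.26 ± 0.24 for HF against Ct (FDR 0.649) and −0.38 ± 0.24 for HF against ECH (FDR 0.737). The 95% intervals of these differences, −0.38 to 0.63, −0.77 to 0.25 and −0.89 to 0.13 on the log2 scale, leave out a 2-fold change in either direction. Blvrb (chromosome 7, 27447978 to 27466144), which reduces biliverdin and flavins, had mean levels of 198 ± 29.2, 174 ± 38.1 and 208.5 ± 39.5 CPM (SD, 4 libraries each) for Ct, ECH and HF. The log2 fold changes of −0.19, 0.07 and 0.26 in the same order of comparisons had an FDR of 0.734, 0.888 and 0.777.

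Iron uptake held the call between ECH and Ct Mφ. Tfrc, the transferrin receptor (chromosome 16, 32608920 to 32632794), was at 74.6, 61.1, 74.0 and 75.8 CPM in the Ct libraries. The ECH libraries held 31.2, 32, 10.9 and 15.9 CPM. The HF libraries held 62.3, 50.8, 37.8 and 38.1 CPM. No ECH library reached the lowest value of either other group, and within ECH the libraries of set A lay above those of set B. One HF library, the first, overlapped with Ct. Tfrc was 3.17-fold lower in ECH than in Ct (log2 fold change −1.67 ± 0.31, 95% interval −2.32 to −1.01, FDR 0.0326, edgeR). Between HF and Ct the log2 fold change was −0.60 ± 0.30 (FDR 0.349), and between HF and ECH it was 1.07 ± 0.30 (unadjusted p 0.00345, FDR 0.527). Two-sided exact permutation tests of log2 CPM, 4 against 4 libraries, gave p = 0.0286 against Ct and against HF for the ECH group and p = 0.0571 for HF against Ct. The value 0.0286 is the smallest this design allows and was reached by 5 of the 30 such tests made on the 10 genes, without adjustment.

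The call for Tfrc depended on the libraries and the model, while its direction did not. Over 21 alternatives the log2 fold change between ECH and Ct lay between −1.88 and −1.17, and the FDR, which ran from 2.41e-05 to 0.213, stayed under 0.05 in 11. Within set A, 2 ECH against 4 Ct libraries, it was −1.18 (FDR 0.213), and with the set as a covariate −1.17 (FDR 0.113). A fit of Ct and ECH alone gave −1.68 (FDR 0.103). Leaving out Ct library 1 or 4, ECH library 3 or 4, or HF library 2, 3 or 4 raised the FDR to between 0.0535 and 0.104. Within set B, where 4 HF met 2 ECH libraries, Tfrc was higher in HF by 1.82 (FDR 0.0148), and with the set as a covariate the difference was 1.82 (FDR 0.00301). The ECH libraries of set B are the 2 with the lowest Tfrc. For HF against ECH, 2.49% of all genes were called within set B and 1.86% with the set as a covariate. With this covariate the log2 fold change between HF and Ct turned from −0.60 to 0.64 (FDR 0.372).

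**Figure D2:**
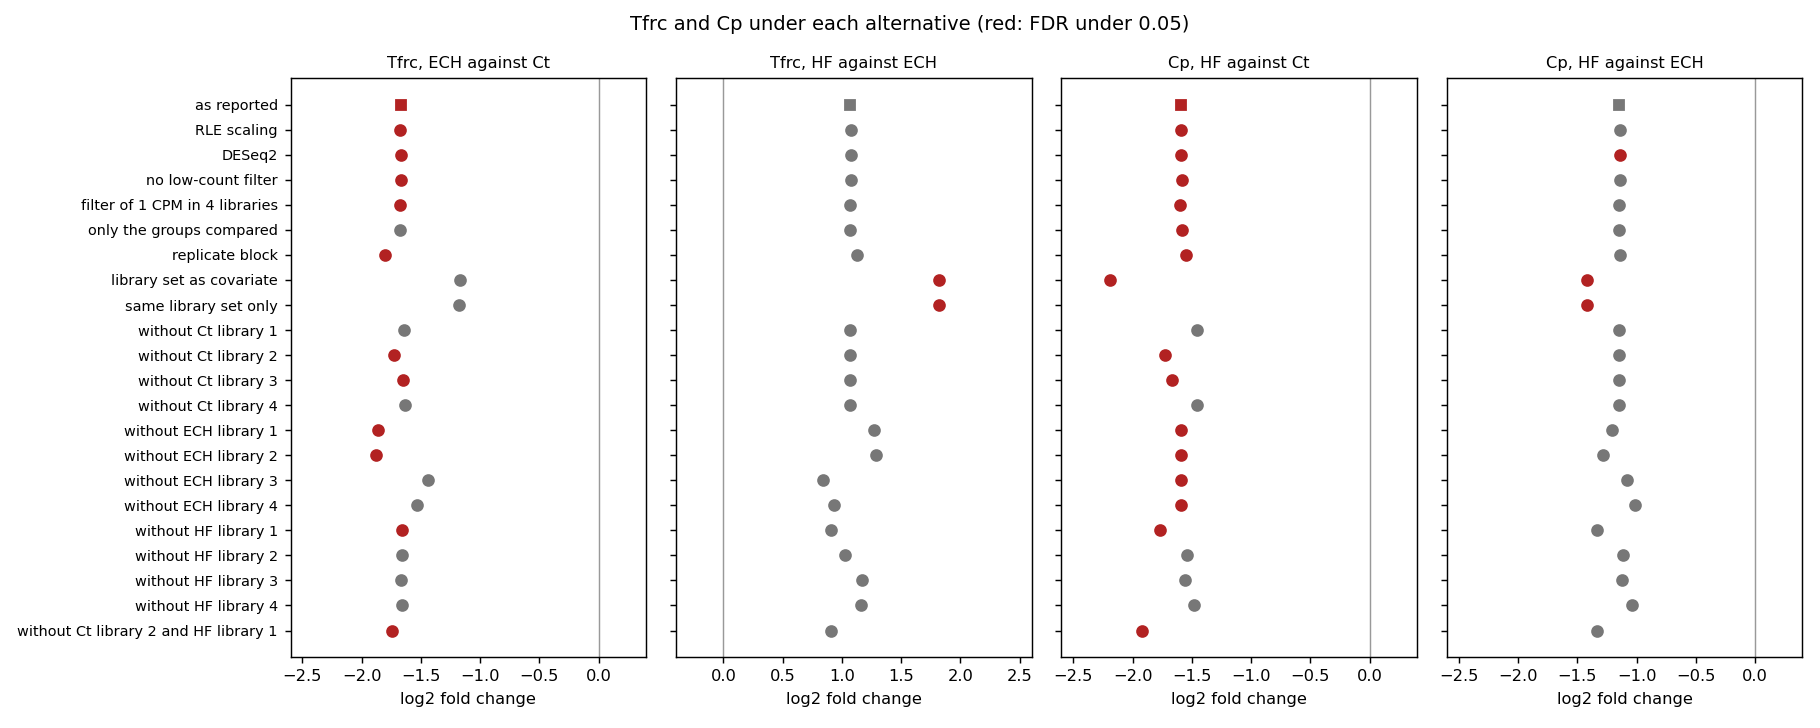
Log2 fold change of Tfrc and Cp as reported (squares) and under each alternative (circles), in red where the FDR was under 0.05. Tfrc stayed below 0 for ECH against Ct, between −1.88 and −1.17, and Cp stayed below 0 for HF against Ct, between −2.19 and −1.46.

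The transporters of the Slc11 family did not pass the test in any comparison. Slc11a1 (chromosome 1, 74375195 to 74386062), a phagosomal metal transporter of which C57BL/6 strains are known to carry a loss-of-function allele, was at 439, 323, 532 and 468 CPM in Ct, at 519, 464.5, 511 and 412 in ECH and at 392, 394.5, 353 and 376 in HF. All HF libraries lay below all ECH libraries, while Ct overlapped with both. HF against ECH gave a log2 fold change of −0.33 ± 0.15 (FDR 0.612, exact permutation p = 0.0286), a difference of 1.26-fold. Of all genes tested, 3.56% had every HF library below every ECH library, as did 2 of the 10, Slc11a1 and Cp, and 3.36% had every HF library above, as did 1, Tfrc. Slc11a2 (chromosome 15, 100387898 to 100425072), the endosomal iron transporter also called DMT1, had means of 40.7 ± 2.63, 37 ± 11 and 37.5 ± 4.87 CPM for Ct, ECH and HF. Its spread was widest in ECH, where library 1 held 52.9 CPM and libraries 3 and 4 held 29.0 and 30.0 CPM. The log2 fold changes were −0.14, −0.12 and 0.02 for ECH and HF against Ct and HF against ECH (FDR 0.824, 0.81 and 0.998). Exons of Slc11a2 overlap those of Gm5475 on the opposite strand, and whether the counting used strand is not known from the sources at hand.

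Ferritin mRNA was abundant in every library, and neither chain passed the test in any comparison. Fth1 (chromosome 19, 9980598 to 9985098), whose chain oxidizes the iron that ferritin takes in, was at 6052, 6285, 5296 and 4790 CPM in Ct, at 6949, 6141, 5979 and 5792 in ECH and at 8010, 6857, 6622 and 5663 in HF. The 3 ranges overlapped. The log2 fold change was 0.15 ± 0.14 for ECH against Ct (FDR 0.723), 0.28 ± 0.14 for HF against Ct (FDR 0.348) and 0.13 ± 0.14 for HF against ECH (FDR 0.908). Ftl1 (chromosome 7, 45457944 to 45459884), the light chain, had means of 11900 ± 1900, 10890 ± 1800 and 11830 ± 2310 CPM for Ct, ECH and HF, with log2 fold changes of −0.13, −0.0084 and 0.12 (FDR 0.822, 0.989 and 0.939). The 95% intervals of all 6 ferritin comparisons lay within −0.50 and 0.57 on the log2 scale.

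The balance of the ferritin chains was also computed, after the values of both had been seen. The Ct libraries held 0.505, 0.432, 0.515 and 0.444 Fth1 counts per Ftl1 count. The ECH libraries held 0.512, 0.608, 0.612 and 0.572, and the HF libraries 0.549, 0.536, 0.631 and 0.599. All HF libraries lay above all Ct libraries, and ECH library 1 alone fell within the Ct range. The two-sided exact permutation p of the log2 ratio was 0.0286 for HF against Ct, 0.0571 for ECH against Ct and 0.971 for HF against ECH. How often the ratios of other gene pairs lie apart in this way was not computed, so these values are descriptions only. The annotation holds 11 further genes or pseudogenes with ferritin heavy chain names and 3 with light chain names, of which 7 and 0 had rows in the files, and the treatment of reads matching several copies is not known from these sources.

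Iron export held the other call. Cp, ceruloplasmin, a ferroxidase (chromosome 3, 19957054 to 20009145), was at 131, 72.9, 86.0 and 131 CPM in the Ct libraries, at 68.0, 55.5, 88.6 and 98.8 in ECH, and at 47.7, 31.9, 33.4 and 27.2 in HF. Every HF library lay below every library of both other groups, and Ct and ECH overlapped. Cp was 3.0-fold lower in HF than in Ct (log2 fold change −1.59 ± 0.25, 95% interval −2.12 to −1.05, FDR 0.0175, edgeR; exact permutation p = 0.0286). ECH against Ct gave −0.44 ± 0.24 (FDR 0.51) and HF against ECH −1.15 ± 0.25 (FDR 0.491, exact permutation p = 0.0286). Of all genes tested, 4.45% had every HF library below every Ct library, as did 1 of the 10, and 3.64% had every ECH library below every Ct library, as did Tfrc alone of the 10. Under 20 alternatives the HF against Ct value lay between −2.19 and −1.46, with an FDR under 0.05 in 15. Leaving out Ct library 1 or 4, or HF library 2, 3 or 4, raised the FDR to between 0.0504 and 0.0723. Within set B the log2 fold change of HF against ECH was −1.42 (FDR 0.0137), beside 2.49% of all genes called there. The ECH libraries of set B are those with the highest Cp of their group. Exons of Cp overlap those of Hps3 on the opposite strand, and reads of such a pair cannot be told apart where strand is not used. Hps3 was at 131 CPM on average, with a log2 fold change of −0.25 for HF against Ct (FDR 0.222) and −0.12 for ECH against Ct (FDR 0.669).

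Slc40a1, the iron exporter ferroportin (chromosome 1, 45908068 to 45926523), overlapped between all 3 groups. It was at 195, 200.3, 95.6 and 283 CPM in Ct, at 385, 278, 205 and 202 in ECH and at 360, 471, 264 and 202 in HF. Ct library 3 was the lowest and HF library 2 the highest of the 12. The log2 fold change was 0.74 ± 0.33 for HF against Ct (95% interval 0.03 to 1.45, unadjusted p 0.0412, FDR 0.291), 0.47 ± 0.33 for ECH against Ct (FDR 0.625) and 0.28 ± 0.33 for HF against ECH (FDR 0.915). Between HF and Ct 16.1% of all genes had an unadjusted p under 0.05, as did 2 of the 10, Slc40a1 and Cp, and between ECH and Ct 11.9% of all genes and Tfrc did, with Heph left out as above.

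Heph (chromosome X, 96455359 to 96574485), a membrane ferroxidase best known from gut epithelium, was near the limit of detection. The Ct libraries held 0, 1, 0 and 0 counts, the ECH libraries 0, 123, 60 and 253, and the HF libraries 0, 0, 17 and 0. ECH library 1 held none, like 3 of the Ct and 3 of the HF libraries, and a count of 0 allows up to 3 counts. Heph passed the filter on low counts through ECH libraries 2 to 4 and HF library 3. The libraries where it was high thus decided that it was tested, and no fold change or p is read from it. Hsf3, whose exons overlap those of Heph on the opposite strand, was at 0.423 CPM on average, with a log2 fold change of −1.17 for ECH against Ct (FDR 0.8).

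**Figure D3:**
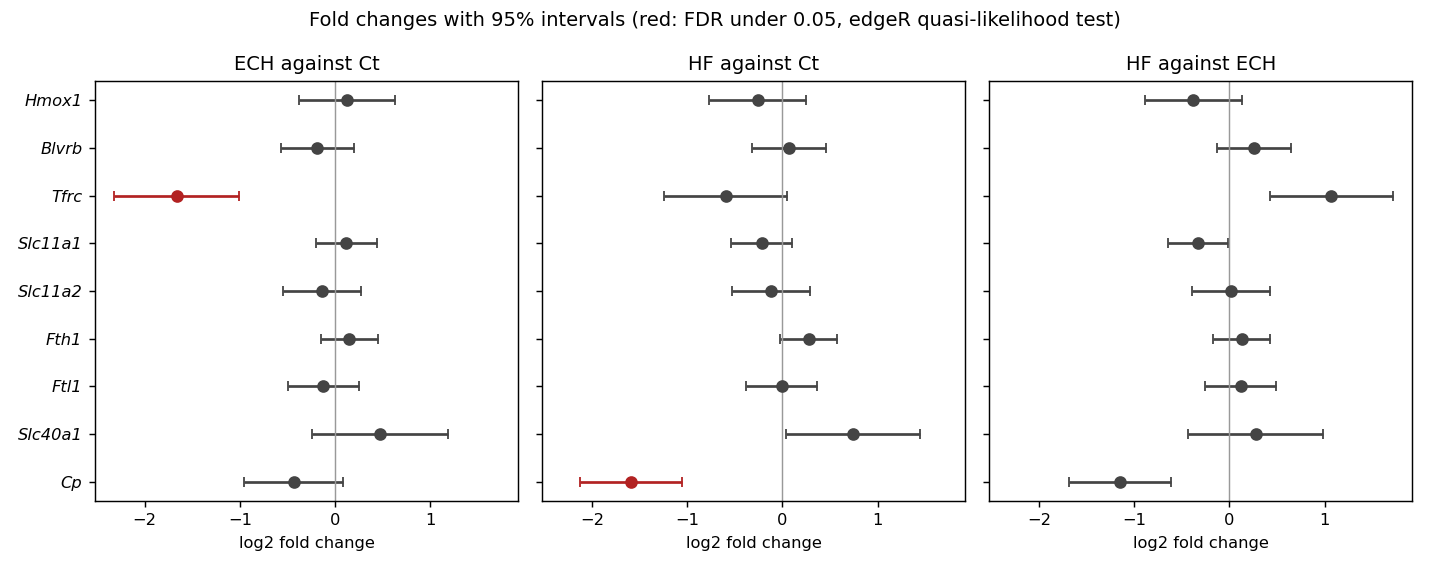
Log2 fold change and 95% interval of 9 of the 10 genes in the 3 comparisons, from a single edgeR fit of 12 libraries, in red where the FDR was under 0.05. Heph is left out because its fitted value rests on groups at or near 0; the 2 red points are Tfrc at −1.67 and Cp at −1.59.

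Within the ECH group the inferred sets lay apart for 6 of the 10 genes. Slc40a1, Fth1, Slc11a2, Tfrc and Blvrb were lower in both libraries of set B than in both of set A, and Cp was higher. Of all genes tested, 26.6% were lower and 27.8% higher in this sense. Tfrc was at 31.2 and 32 CPM in set A and 10.9 and 15.9 CPM in set B. The ECH libraries of set B also share the further label code, which neither ECH library of set A carries. Within ECH, the inferred set and this code thus cannot be told apart.

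The wider list of iron and heme genes held 68 names in 7 roles, of which 57 were tested, Flvcr1, Flvcr2, Tf and Hjv were not analysed here and 7 others, among them the hepcidin gene Hamp and Tfr2, did not pass the filter. None of the 47 genes outside the 10 was called by edgeR in any comparison of the fit to 12 libraries, and other edgeR fits called Hfe, Cd163 or Ltf. With an unadjusted p under 0.05, 4 were higher and 2 lower in ECH than in Ct, beside 6.03% and 5.89% of all genes. In HF against Ct 3 were higher and 4 lower, beside 7.35% and 8.72%, and in HF against ECH 3 were higher and 5 lower, beside 2.81% and 5.17%. Few of the 47 had groups that did not overlap. Every ECH library lay above every Ct library for Hfe and below for Slc25a37, beside 4.33% and 3.64% of all genes. Every HF library lay above every Ct library for Alas1 and below for Ltf and Slc25a37, beside 4.59% and 4.45%. Every HF library lay above every ECH library for Hmox2 and Blvra, beside 3.36%, and below for none, beside 3.56%. With DESeq2, Ltf alone of the 47 was called in HF against Ct and in HF against ECH, and none in ECH against Ct, beside the shares of all genes given above for that tool.

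Hfe, of the regulators, encodes a protein that binds the transferrin receptor. Hfe was at 265, 279, 206 and 239 CPM in Ct, at 316, 283, 655 and 551 in ECH and at 280, 285, 281 and 241 in HF. The 2 ECH libraries with the lowest Tfrc held the highest Hfe, and the other 2 held 316 and 283 CPM, beside a highest value of 279 CPM in Ct and 285 CPM in HF. The log2 fold change was 0.87 ± 0.23 for ECH against Ct (FDR 0.137), and without ECH library 2 it was 1.04 (FDR 0.0486). For HF against ECH it was −0.73 (FDR 0.535) over the 12 libraries and −1.15 (FDR 0.00393) within set B, whose ECH libraries are the 2 with the highest Hfe. Of all genes, 2.49% were called for HF against ECH within set B. Fbxl5, which senses iron and marks an iron regulatory protein for degradation, was also highest in ECH libraries 3 and 4, at 227.5 and 195 CPM, against 93.5 to 154 CPM in the other 10 libraries. Its log2 fold change was −0.66 ± 0.20 for HF against ECH (FDR 0.534).

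Among genes of heme uptake, Cd163, the receptor for hemoglobin bound to haptoglobin, was at 1189, 1044, 887 and 1448 CPM in Ct, at 1942, 1083, 2151 and 2350 in ECH and at 964, 1170, 680 and 943 in HF. ECH library 2 was within the range of Ct and HF, and the other ECH libraries were above it. The log2 fold change was 0.72 ± 0.24 for ECH against Ct (FDR 0.241) and −1.0 ± 0.24 for HF against ECH (FDR 0.491, and −1.26 with FDR 0.0134 within set B). The ECH libraries of set B held the highest Cd163, and 2.49% of all genes were called for HF against ECH within that set. The study lists Cd163 among the genes up-regulated in ECH Mφ. Abcg2, an exporter of heme and porphyrins, was at 20.3 ± 6.58, 29.3 ± 4.70 and 22.0 ± 4.01 CPM in Ct, ECH and HF. In heme breakdown, the constitutive oxygenase Hmox2 was at 104 ± 15.1, 101.5 ± 14.2 and 129 ± 6.62 CPM, with a log2 fold change of 0.35 for HF against ECH (FDR 0.564). Blvra, the other biliverdin reductase, was at 81.4 ± 27.9, 92.5 ± 4.08 and 105 ± 2.85 CPM.

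In iron uptake, Slc22a17, a receptor of lipocalin 2, was at 46.0, 37.8, 21.7 and 36.5 CPM in Ct, at 19.4 to 24.8 in ECH and at 16.4 to 26.7 in HF. Ct library 3 overlapped with both other groups, and the log2 fold changes against Ct were −0.67 (FDR 0.247) and −0.74 (FDR 0.157). Ltf, lactoferrin, is an iron-binding protein of neutrophil granules. It was at 10.1 to 51.3 CPM in Ct, 10.5, 0.0194, 0.556 and 41.9 CPM in ECH and at most 0.314 CPM in HF (FDR 0.0886 for HF against Ct). The summed neutrophil markers, of which Ltf is one, lay between 218 and 1560 CPM in Ct, between 86.4 and 619 in ECH and between 55.0 and 1050 in HF. All 8 were detected in Ct and ECH, Camp was at 0 in HF, and the part of neutrophils in the Ltf values was not tested.

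In storage, Ncoa4, which delivers ferritin to lysosomes, had means of 233 ± 51, 215 ± 46.3 and 299 ± 39.9 CPM for Ct, ECH and HF, and Pcbp2, an iron chaperone, was at 37.5 ± 16.2, 28.1 ± 1.91 and 29.1 ± 4.11 CPM. Among mitochondrial genes, Slc25a37, the iron importer mitoferrin, was at 40.3 to 82.4 CPM in Ct, at 27.4 to 37.4 in ECH and at 24.5 to 40.2 in HF. Against Ct the log2 fold change was −0.75 in both groups (FDR 0.192 in ECH and 0.151 in HF). Alas1, which catalyses the first step of heme synthesis, was at 22.5 to 54.5 CPM in Ct, at 53.6 to 77.1 in ECH and at 65.5 to 92.8 in HF. Its log2 fold change was 0.53 for ECH (FDR 0.403) and 0.81 for HF (FDR 0.151) against Ct. None of these differences passed the FDR threshold.

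**Figure D4:**
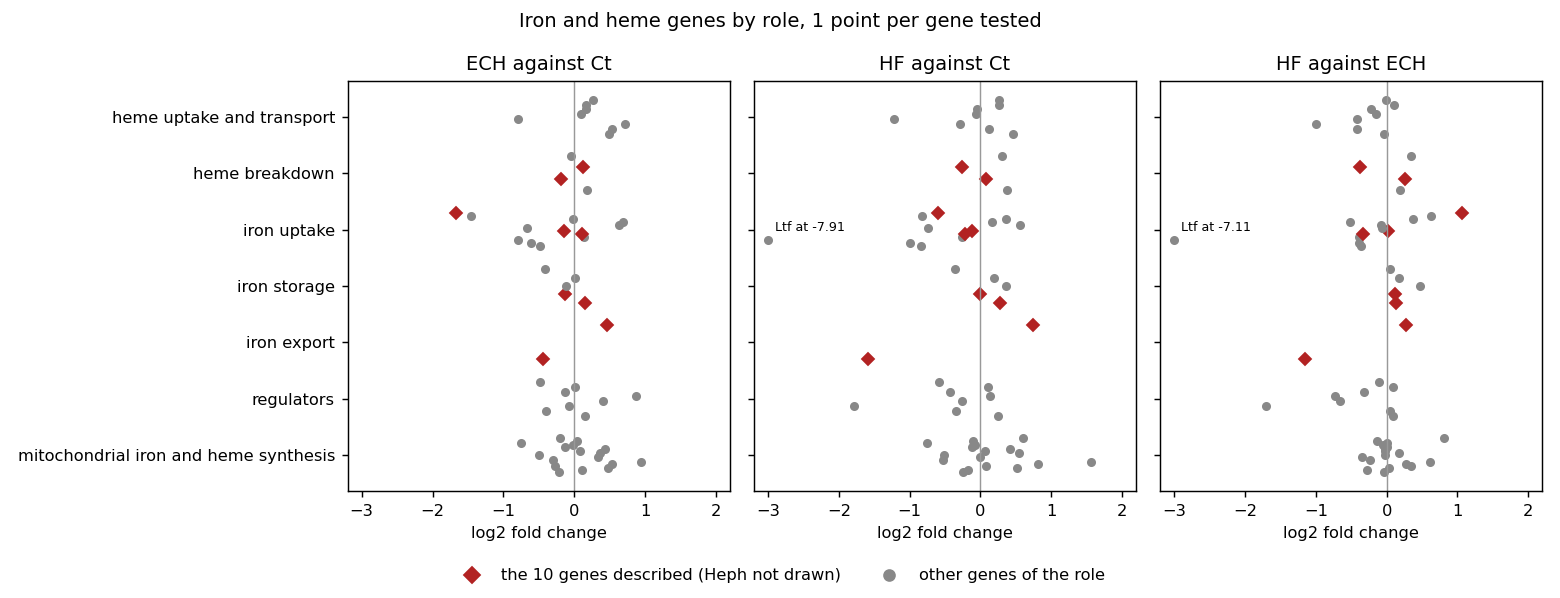
Log2 fold change of the tested genes of the wider iron and heme list by role in the 3 comparisons, with the 10 genes described (Heph not drawn) as red diamonds. In iron uptake Tfrc is the lowest point for ECH against Ct, at −1.67; Ltf lies beyond the axis, at −7.91 for HF against Ct, and is drawn at its edge.

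Over the 12 libraries the gene most like Tfrc, among 8648 genes with a mean of at least 10 CPM, was Cmah, an enzyme of sialic acid synthesis (Pearson r of log2 CPM 0.953, and 0.929 with the group means removed). Brf1 was most like Cp (0.936 and 0.863), Aoah most like Slc40a1 (0.942 and 0.928), and Sqstm1, an autophagy receptor, most like Hmox1 (0.878 and 0.886). Cd63 was most like Fth1 (0.937 and 0.923) and Atp6v0b, a subunit of the lysosomal proton pump, most like Ftl1 (0.982 and 0.983). These were the highest of many correlations over libraries that share groups and sets, and are given as descriptions. Tfrc and Cp, the 2 genes called, had an r of 0.03 with each other.

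Markers of other cells were present in these sorted samples, and in bulk RNA fewer cells of a type and less RNA per cell cannot be told apart. The 5 B cell markers, all detected in each group, summed to 156, 446, 96.6 and 231 CPM in Ct, to between 34.3 and 79.8 in ECH and to between 50.1 and 74.6 in HF, and the fitted value of each was below Ct in both groups, 1 of the 5 being called in each. Ct library 2, with the highest B cell sum, had the lowest Tfrc and Cp of the Ct libraries. T and NK cell markers summed to 12.7 to 58.6, 2.71 to 23.2 and 7.20 to 17.3 CPM in Ct, ECH and HF, and 6 of 7 were in the files. The 8 fibroblast markers summed to 29.8 to 197, 90.8 to 477 and 81.4 to 254 CPM, and ECH libraries 3 and 4, both low in Tfrc, held the lowest and the highest of the ECH sums. Neutrophil markers were highest in Ct library 2 and, among HF libraries, in library 4, which held the lowest Cp of all. Sums of resident Mφ markers lay between 4360 and 5720, 4830 and 6770, and 4080 and 4980 CPM, in Ct, ECH and HF, and of Ly6C-high monocyte markers between 2270 and 5610, 4470 and 5390, and 4590 and 5650 CPM, all 8 of each being detected in every group. Of the resident markers 1, Timd4, was called, at 112 to 227 CPM in Ct and 33.6 to 77.3 CPM in ECH (log2 fold change −1.62 for ECH against Ct, FDR 0.0341). The sum was carried mostly by Mrc1, Cd163 and Lyve1. Cx3cr1 was at 50.2 and 23.9 CPM in ECH libraries 3 and 4, those lowest in Tfrc, and between 126 and 236 CPM in the other 10 libraries, and Mertk was at 496 and 414 CPM there against 76.0 to 183 CPM. Cardiomyocyte markers summed to 47.2 to 173 CPM and endothelial markers to 25.7 to 107 CPM over the 12 libraries, again with all 8 of each detected. Of the erythroid list 9 of 10 genes were in the files, and Hba-a1, Hba-a2, Hbb-bs, Hbb-bt and Slc4a1 were listed at 0 in all 12 libraries. As the treatment of reads matching several copies is not known, the zeros of the near-identical globin genes are not read as a lack of red cell RNA. The part of any of these cells in the values of Tfrc and Cp was not tested.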

How the data were processed

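The counts per gene, as deposited by the authors, are whole numbers without normalization. Per the study's methods, reads of SMART-Seq v4 libraries were trimmed with Trimmomatic, aligned to mm10 with TopHat2 and counted with featureCounts. The sources used here give no annotation, version or strand setting, nor do they say if single reads or fragments were the unit counted. PCR copies are not independent molecules, so limits on counts cover counting error only.

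Samples were grouped by their labels. Genes were filtered with filterByExpr, library sizes were scaled by TMM, and the quasi-likelihood method of edgeR 4.0.16 in R 4.3.3 was used on all 12 libraries together, with group as the factor (common dispersion 0.37). Benjamini-Hochberg adjustment covered 14608 genes, and intervals are 95%. Exact permutation tests used log2(CPM + 0.1). The code was tested on counts simulated from the means and dispersions of these libraries. Of genes changed 2-fold, 37.0%, 31.5% and 19.5% had an FDR under 0.05 for ECH against Ct, HF against Ct and HF against ECH. Of genes changed 4-fold, 59.5% to 64.5% did. Most 2-fold changes were thus missed in the simulated data. Levels per kb use the longest principal transcript of GENCODE M21, to which 23466 symbols matched. The 10 genes, the wider list, the markers and the alternatives were chosen with earlier results of these data known. Of the wider list, genes passing the FDR threshold and otherwise the 2 genes of lowest p per role outside the 10 were named, and the gene most like a member was named for 6 of them. Alternatives were RLE scaling, DESeq2 1.42.0, other filters, fits of the groups compared or of one library set, the set as covariate, a replicate block, no fold threshold and each library left out.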

Additional observations from a re-analysis of the deposited data

Results flagged for a closer look

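Each of the 10 genes was examined in each group of 4 for a library far from the other 3, by Dixon's gap ratio at the 95% level. Of 30 groups 4 were marked, 2 of them for Heph. Chance marks about 1 in 20 groups. Ct library 2 had the lowest Tfrc of its group, 61.1 CPM against 74.0 to 75.8 CPM in the others. ECH library 1 had the highest Ftl1 of its group, 13600 CPM against 9771 to 10120 CPM. For Heph, Ct library 2 held 0.0116 CPM, which is a single count, and HF library 3 held 0.158 CPM, with 0 in the other libraries of both groups. Where 3 of 4 values are equal the gap ratio is at its maximum by construction, so the marks of Heph are no test.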

How the results depend on the processing

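The number of the 10 genes called between ECH and Ct, 1 as reported, was 2 with DESeq2, the second being Heph, at or near 0 in most libraries. It was 0 with only the groups compared, with the library set as a covariate or within the same set, and 0 to 1 when single libraries were left out. Over the whole wider list, also 1, it was 2 (again with Heph), 0, 0 and 0 under the same settings and 0 to 2 with libraries left out. Between HF and Ct, leaving out single libraries gave 0 to 1 of the 10 and 0 to 2 of the wider list, where 1 was reported for each, and DESeq2 and a fit of only the groups compared gave 2 of the wider list. Between HF and ECH, where none was reported, DESeq2 called 1 of the 10 and 2 of the wider list, and the covariate and the same set each called 2 and 4. Of all genes, edgeR called 0.151% between ECH and Ct with the covariate, 0.00674% within the same set, 0.0567% with only the groups compared and 0.0734% to 0.633% with single libraries left out. Between HF and Ct it called 1.42% with the covariate, 0.297% with only the groups compared and 0.1% to 0.686% with single libraries left out, and between HF and ECH 1.86% with the covariate and 2.49% within the same set. The cause of these shifts was not tested. RLE scaling, the other filters and the fold threshold left the counts of the 10 genes and of the wider list as they were.

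Directions turned in 19 cases, none at an FDR under 0.05. Of these, 1 was that of Heph for HF against Ct, from which no fold change is read. With the set as a covariate, log2 fold changes for ECH against Ct became 0.13 for Slc11a2 and 0.0402 for Blvrb (0.12 and 0.0331 within the same set), and for HF against Ct 0.24 for Ftl1, 0.48 for Slc11a2 and 0.64 for Tfrc. Without Ct library 2 and HF library 1 together, Slc11a1 for ECH against Ct became −0.0193 and Slc11a2 for HF against ECH −0.0257. With single libraries left out, Slc11a1 (ECH against Ct) ranged from −0.0081 to 0.22, Slc11a2 (HF against ECH) from −0.0803 to 0.242, and for HF against Ct Ftl1 from −0.124 to 0.103, Blvrb from −0.0516 to 0.179 and Heph from −1.70 to 5.11.

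The replicate numbers did not pair the samples: over 12 same-numbered pairs the correlation of deviations from group means lay between −0.07 and 0.07. With the replicate number as a block, 1, 1 and 0 of the 10 genes were called in ECH against Ct, HF against Ct and HF against ECH, beside 0.151%, 0.123% and 0% of all genes (22, 18 and 0, against 52, 55 and 0 without the block), with Tfrc at −1.80 (FDR 0.041) and Cp at −1.55 (FDR 0.0359). Counts of Heph in most libraries and of Ltf in HF were at or near 0, so their fold changes are not precise.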
